A study of Homo sapiens with 12 samples.

Results

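The wild-type HEK293 translation landscape was taken from 1 deposited column, the authors' mean ribosome density per gene over the 5 wild-type libraries treated with cycloheximide only. Its members are the 18884 gene rows on chromosomes 1 to 22, X and MT, of 19219 rows in the table. HEK293 is an established human embryonic kidney cell line, grown here in DMEM with 10% FCS. Ribosome profiling sequences the mRNA fragments that ribosomes shield from nuclease, and cycloheximide, an inhibitor of elongation, holds translating ribosomes in place. The series also holds 3 CNBP knockout libraries with cycloheximide, 1 knockout library with harringtonine and cycloheximide and 3 wild-type libraries with both drugs, which are not compared here. The series asks how CNBP, a zinc-finger protein that binds G-rich RNA, affects translation of its target mRNAs. The label of the cells used here is wild type, with no further genotype. Nothing in the labels says that the 5 libraries came from separate cultures, and only their mean was used, so no spread between libraries and no test can be given.

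A gene's footprints reflect both the amount of its mRNA and the number of ribosomes on each mRNA, and RNA levels, which would separate them, were not analysed here. Growing cells are known to spend much of their translation on ribosomes, elongation factors, glycolytic enzymes, chaperones and histones, mostly abundant and short proteins. Many mRNAs of the translation machinery begin with a 5' terminal oligopyrimidine tract (TOP), a C followed by pyrimidines, through which growth signalling sets their translation.

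Values are given on 3 scales. Density is the authors' footprint level per transcript length, in their own unit, and is the scale on which genes are compared with each other. Multiplying density by the listed length of the longest transcript and dividing by the estimated weight of 1 read gave effective reads, 2157615 over the 18884 genes. A gene's read share is its effective reads as a percentage of that sum. Intervals are 95% Clopper-Pearson intervals on effective reads and cover counting error only. The reads carry no molecular identifiers, so they need not be independent molecules. The deepest library was estimated as 2.76 times as deep as the shallowest.

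Footprints were detected on most genes and were concentrated on few. A density above 0 was listed for 14614 of 18884 genes, which is 77.4%. At least 10 effective reads were reached by 11399 genes (60.4%) and at least 100 by 3048 genes (16.1%). The median density was 0.0548 over all genes and 0.0946 over those above 0. Among detected genes the density at the 90th percentile was 58.6 times that at the 10th. Only 791 genes had a density of at least 1, and 65 reached 10. Of all effective reads, 50% lay on 146 genes, 90% on 4983 and 99% on 10666. The 10 genes with the largest read shares held 34.2% and the largest 100 held 47.3%. Detected genes below the median density of 0.0946 together held 6.06%.

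**Figure D1:**
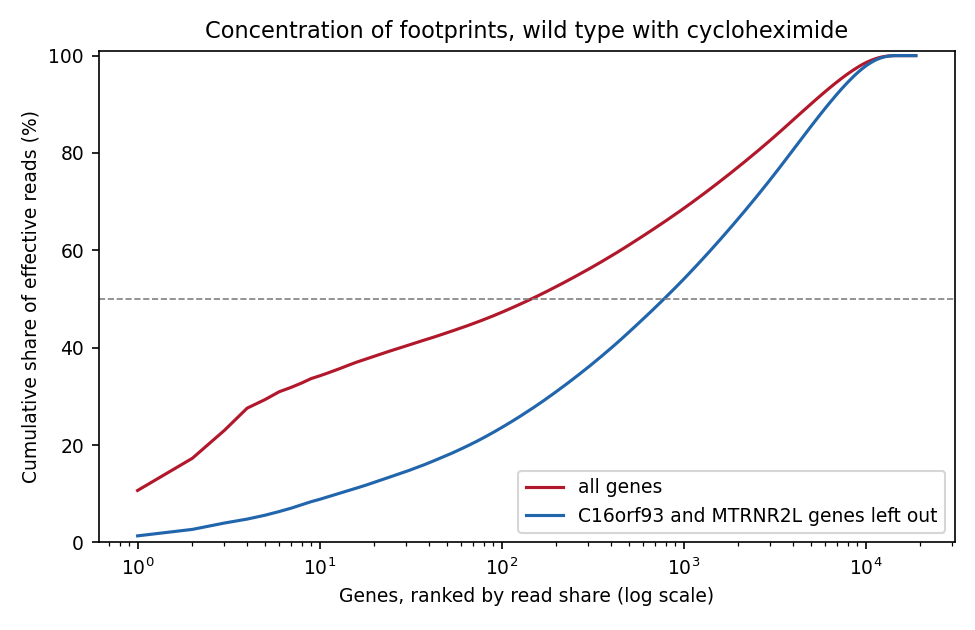
Cumulative share of effective reads (%, vertical axis) over genes ranked by read share (log scale, horizontal axis) in wild type with cycloheximide. The red line holds all genes and passes the dashed 50% line at 146 genes; the blue line leaves out C16orf93 and the 12 MTRNR2L genes and passes it at 780 genes.

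C16orf93 and the 12 MTRNR2L genes held 32.0% of the effective reads between them. C16orf93 (hg19 chromosome 16) had a density of 1063 and a read share of 10.7% (interval 10.6 to 10.7). RefSeq now calls it CFAP119, after a protein associated with cilia and flagella. The MTRNR2L genes are nuclear copies of the stretch of mitochondrial 16S ribosomal RNA that contains the humanin reading frame. MTRNR2L12 had the highest density of any gene, 1184, followed within the family by MTRNR2L1 (895), MTRNR2L8 (744), MTRNR2L6 (252), MTRNR2L11 (221) and MTRNR2L9 (154). MTRNR2L7 had 41.7 and MTRNR2L3 26.6. At the other end of the family, MTRNR2L13 (2.36) and MTRNR2L4 (2.20) were lowest, yet ranked 325 and 356 of the 18884 genes. Because these copies are near-identical to each other and to mitochondrial ribosomal RNA, a read cannot be assigned to one of them with certainty, and ribosomal RNA fragments could be counted on them; what share of these reads is mRNA footprints was not tested. C16orf93 has no such copies named here and is set apart only as the row with the largest read share, a choice made with its value known. Shares are also given without these 13 genes, over the remaining 1467983 effective reads. There, 50% of the reads lay on 780 genes and the largest 100 genes held 23.6%.

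Cytosolic ribosomal proteins formed the list with the highest median density outside the MTRNR2L genes and C16orf93 when genes listed at 0 were counted. Over genes above 0 only, the median was 4.63 for them, 6.67 for mitochondrially encoded proteins and 5.59 for histones. All 84 rows of the list, tissue-restricted paralogs included, were above 0, against 77.4% of all genes. At least 100 effective reads fell on 76 of them, against 16.1% of all genes, and 80 lay among the highest 10% of densities. The list's median density was 4.63, which is 84.4 times the all-gene median of 0.0548. Together they held 3.64% of the effective reads (interval 3.61 to 3.66), or 5.35% without the 13 genes, although they make up 0.445% of the rows. RPL7A, a large-subunit protein, led with a density of 15.1. The small-subunit proteins RPS18 (13.5) and RPS4X (13.01) and RPL39 (12.1), among the shortest of all ribosomal proteins, were also near the top. The lowest rows were the paralogs RPL22L1 (0.362), RPS27L (0.262) and RPL3L (0.0736), the last a muscle form of RPL3, which itself had 4.48.

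The first bases of ribosomal protein genes from the top of the list show the start-site tract, and the highest glycolytic genes are set beside them for contrast. Each window runs from 10 bases before to 15 bases from the annotated RefSeq start (GRCh38.p14, coding strand); capitals mark the run of C followed by pyrimidines that opens at the start, and windows without capitals have no C at the start.
RPL7A: attccctttcCTTTCTCTCTCCTCC
RPS18: cacttccgctCTCTCTTCCacagga
RPS4X: ctccagccccaatttctacgcgcac
RPL39: ccgccagcttCCCTCCTCTTCCTTT
RPS15: aggcgcggacCaaagcgatctcttc
RPS25: gcagcgcttcCTTTTTgtccgacat
GAPDH: gtgcatccctgtccggatgctgcgc
ENO1: cggcgcggacagtatctgtgggtac
LDHB: ctcctccctcCTTgcagagccggcg

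RPL7A (chromosome 9, 133348208 to 133348232), RPS18 (chromosome 6, 33272065 to 33272089), RPL39 (chromosome X, 119791616 to 119791640) and RPS25 (chromosome 11, 119018329 to 119018353) open with such a run of 16, 9, 19 and 6 bases. At the start that RefSeq annotates, RPS4X, GAPDH and ENO1 have no such run, RPS15 has a single C and LDHB a run of 3. RefSeq holds 1 start per gene, which need not be the one HEK293 cells use. A C followed by at least 4 pyrimidines (C or T, read on the coding strand at the start itself) opened 42 of the 66 ribosomal protein genes with a start window, or 63.6%, against 4.64% of the 14792 genes of the table with one. The share was 50% among the 16 matched genes of the list of other TOP mRNAs and elongation factors, a list named for this tract. It was 23.3% for initiation factors, 13.2% for nuclear-encoded oxidative phosphorylation, 5.97% for mitochondrial ribosomal proteins and 0% for the 41 proteasome and 17 glycolysis genes matched.

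Genes with the densest footprints more often had such a start. In the highest density decile of detected genes 11.4% opened with the tract, and 8.51% did when ribosomal proteins were left out. In the other 9 deciles the share lay between 3.51% and 5.70%, and among genes listed at 0 it was 3.07%. Small nucleolar RNA genes, whose products guide the chemical modification of ribosomal RNA and which often lie in introns, were also most frequent in the highest decile. At least 1 lay inside 34.5% of ribosomal protein genes, 7.33% of genes in the highest decile, 5.66% of that decile without ribosomal proteins, and 2.77% of all genes. The lower 9 deciles ranged from 1.85% to 3.77%. The GC content of the window from 250 bases before the start to 50 after it had medians over the deciles between 62.7% and 66.0%, and a median of 53.7% for genes listed at 0.

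**Figure D2:**
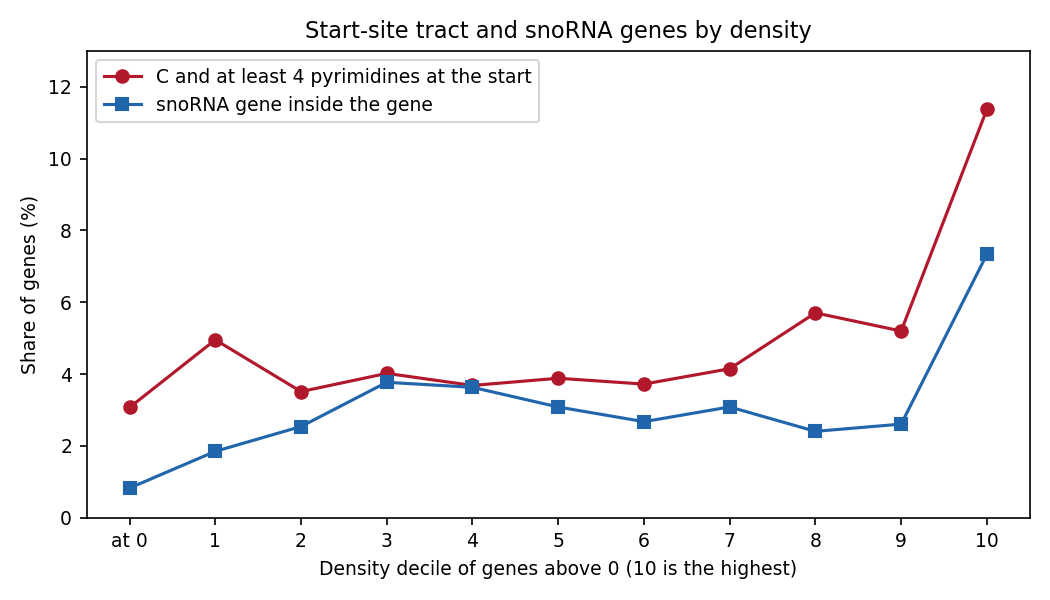
Share of genes (%, vertical axis) that open with C and at least 4 pyrimidines (red circles) or contain a small nucleolar RNA gene (blue squares), for genes listed at 0 and for each density decile of detected genes (horizontal axis, 10 the highest). Both shares are highest in decile 10, at 11.4% and 7.33%.

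The elongation factors EEF1A1 and EEF2 stood above all initiation and termination factors listed. EEF1A1, which delivers aminoacyl-tRNA to the ribosome, had a density of 24.6 and 11199 effective reads, 0.519% of the total. EEF2, which moves the ribosome along by 1 codon, had 13.7, EIF5A, which helps at difficult peptide bonds, 6.80 and EEF1B2, an exchange factor for EEF1A, 4.42. EEF1A2, the form of muscle and neurons, had 0.394. The ribosome-associated scaffold GNB2L1 (RACK1) had 8.87 and BTF3, a nascent-chain-binding protein, 7.71. Among the 51 initiation factor rows the median was 0.661, and 36 had at least 100 effective reads, against 16.1% of all genes. EIF3I (6.86), EIF3CL (4.59) and EIF3K (3.72), all of the eIF3 scaffold complex, were the highest, with EIF3CL uncertain because EIF3C (2.10) is a near copy. The 15 termination and rescue factors had a median of 0.205, led by the release factor ETF1 (0.820), the recycling factor ABCE1 (0.741) and GSPT1 (0.685), the GTPase that works with ETF1. The 21 aminoacyl-tRNA synthetases and their scaffold proteins had a higher median than either, 0.929. Of these, 19 had 100 effective reads or more, against 16.1% of all genes. FARSA, a subunit of phenylalanyl-tRNA synthetase, led them with 2.13, followed by EPRS (1.73) and TARS (1.70), and CARS was lowest with 0.151.

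Ribosome assembly factors and RNA-binding proteins were also dense. NPM1, the abundant nucleolar chaperone, had a density of 16.8, and FBL, the methyltransferase of box C/D particles, and NCL, nucleolin, had 6.99 and 4.35. All 68 ribosome biogenesis genes were above 0, against 77.4% of all genes, with a median of 0.669. At least 100 effective reads fell on 56 of them, against 16.1% of all genes. The 62 hnRNP, SR and FET family RNA-binding proteins had a median of 1.33 and 2.08% of the effective reads. HNRNPA2B1 and HNRNPK, which bind nuclear pre-mRNA, had 7.01 and 5.51. HNRNPA1 had 9.16 and its intronless near copy HNRNPA1L2 15.9, and which of the 2 the reads came from is uncertain. CNBP (ENSG00000169714, hg19 chromosome 3, 128888327 to 128902765) had a density of 3.73 from 637 effective reads and ranked 200 of 18884. Core spliceosome genes had a median of 0.884, led by LSM4 (8.20), SNRPD2 (4.71) and SNRPB (4.38), which form rings on small nuclear RNA. DEAD and DEAH helicases were lower, with a median of 0.269 and DDX21 (2.27), DHX9 (2.08) and DDX5 (2.03) on top.

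**Figure D3:**
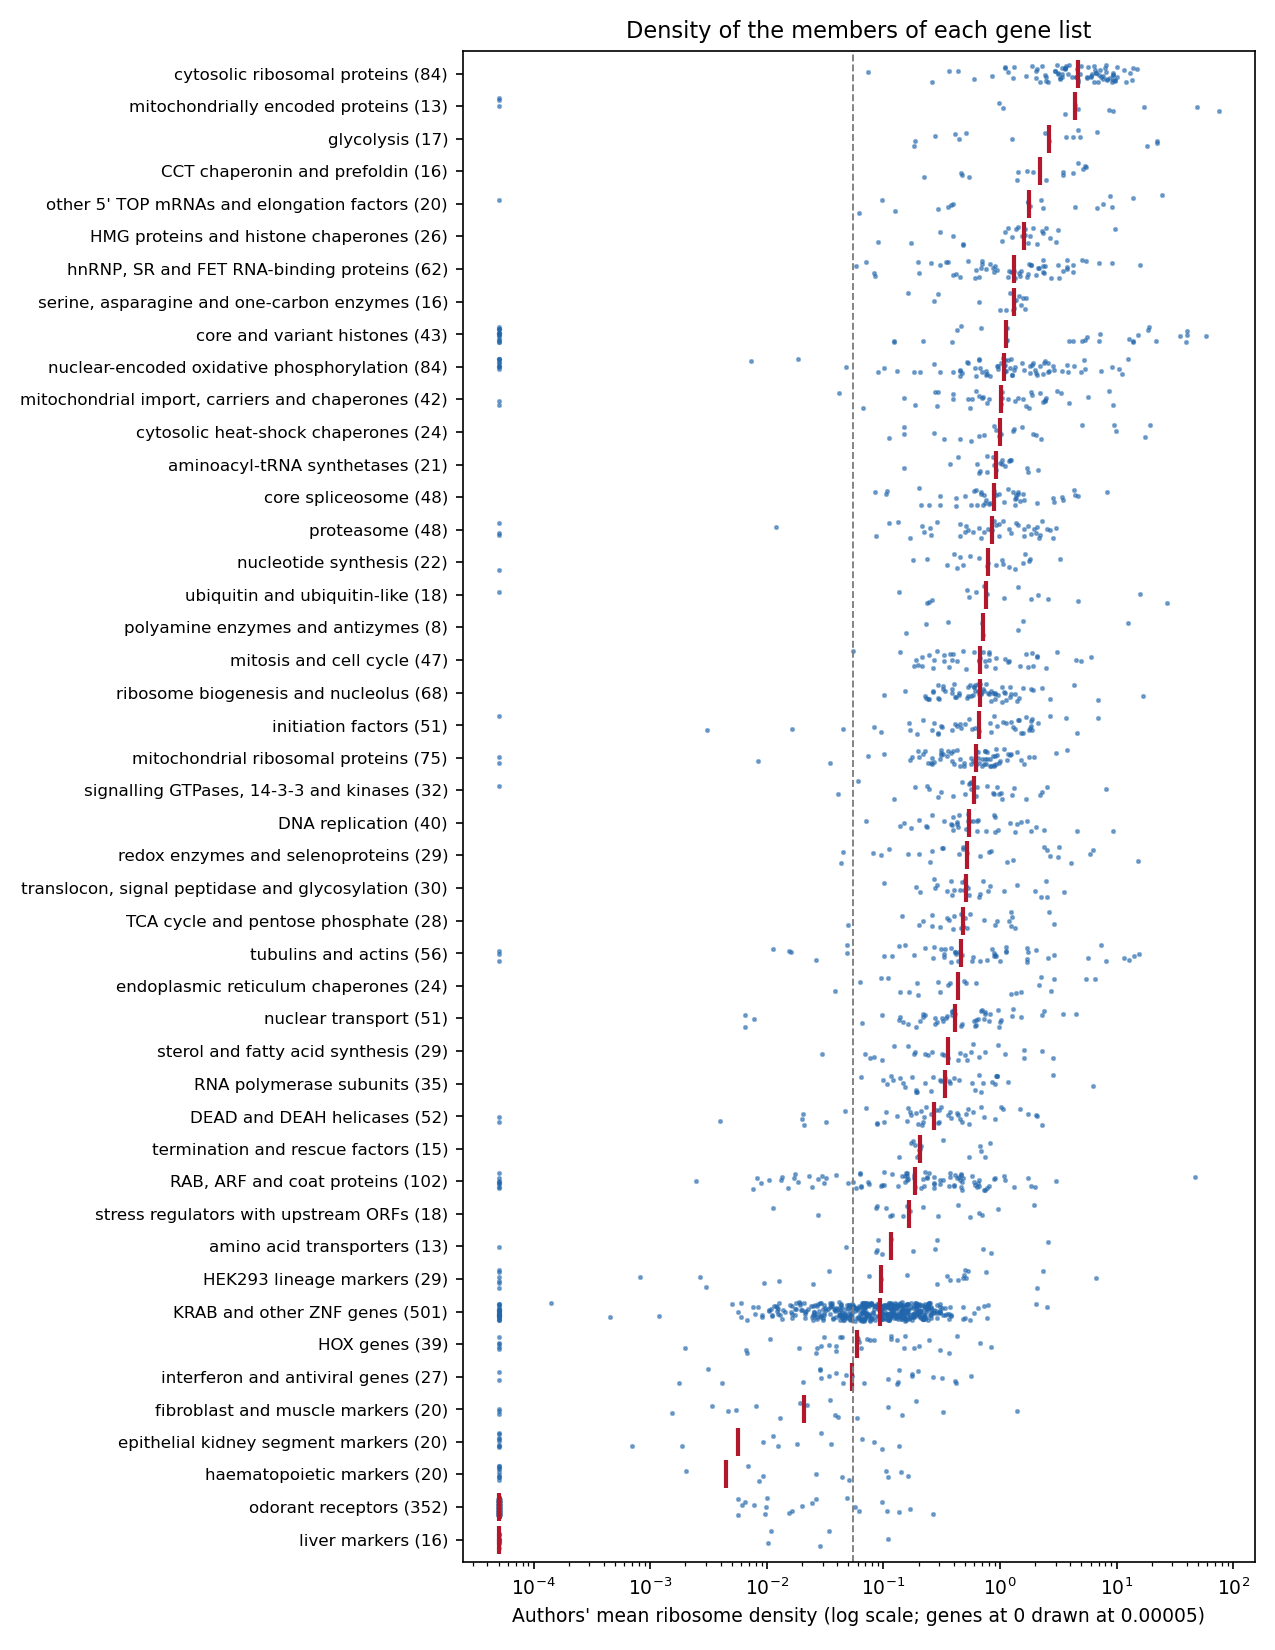
Authors' mean ribosome density (log scale, horizontal axis) of each member (blue points) of the gene lists other than C16orf93 and the MTRNR2L genes, with the number of rows in brackets, the list median (red bar) and the all-gene median of 0.0548 (dashed line). Genes listed at 0 are drawn at 0.00005. With genes at 0 counted, cytosolic ribosomal proteins have the highest median drawn, 4.63, and odorant receptors and liver markers have a median of 0.

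Histones included several of the densest rows and many rows listed at 0. The linker histones HIST1H1C and HIST1H1E had densities of 58.2 and 34.9. Histone H3 was represented by HIST2H3A (40.6) and HIST2H3C (40.5), near-identical copies whose values are uncertain one by one. HIST1H2BK (39.5) and HIST1H2BD (21.99) led the H2B genes. The H2A row HIST2H2AA3, which the list's name pattern missed, had 65.8, the highest of any histone row. The 43 listed histone rows held 2.08% of the effective reads, or 3.05% without the 13 genes, and 29 of the 43 were above 0, a smaller share than the 77.4% over all genes. The 14 at 0 include HIST1H4C and HIST2H2AC; many histone genes are near copies of each other, so single values are uncertain. The list's median was 1.12, and 5.59 over the 29 above 0. Of the high-mobility-group proteins and histone chaperones, PTMA, the small acidic prothymosin, had 9.67, ANP32B 3.12 and SET 3.02, and the median of the 26 was 1.59.

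Of the metabolism lists, glycolysis had the highest median density. GAPDH (22.4), ENO1 (22.3) and LDHB (18.1), which catalyse the oxidation of glyceraldehyde phosphate, the dehydration to phosphoenolpyruvate and the interconversion of pyruvate and lactate, stood above TPI1 (6.74), PGAM1 (4.85) and PKM (4.69). LDHA, the other lactate dehydrogenase subunit, had 4.24. HK2 (0.274) and PFKL (0.186), at the entry of the pathway, and ALDOC (0.181) were the lowest of the list. The 17 glycolysis genes had a median of 2.64 and held 0.992% of the effective reads. At least 100 effective reads fell on 16 of them, against 16.1% of all genes. The 28 TCA cycle and pentose phosphate genes had a median of 0.482, with PGD (2.88), MDH2 (2.61) and TALDO1 (1.34) highest. In sterol and fatty acid synthesis ACLY, which supplies cytosolic acetyl-CoA, had 2.82, the fatty acid synthase FASN 2.29 and HMGCS1, an early sterol enzyme, 1.60, around a median of 0.357. Serine, asparagine and one-carbon enzymes lay higher, with a median of 1.31, and PSAT1 (1.67), SHMT2 (1.63) and ASNS (1.58) on top. Among nucleotide enzymes PAICS of purine synthesis had 3.30 and RRM1 of ribonucleotide reductase 1.80, with the nucleoside diphosphate kinase NME1 at 1.78.

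Mitochondrial proteins came from both genomes. Of the 13 proteins encoded in mitochondrial DNA, 10 were above 0, a share near the 77.4% over all genes, and they held 0.911% of the effective reads. MT-CO1, the catalytic subunit of cytochrome c oxidase, had a density of 75.3, MT-ND6, encoded on the other strand from the rest, 49.2 and MT-CO2 17.1, while MT-ND2 had 1.06 and MT-ND1 0.987. MT-CO1 alone took 60.5% of the effective reads on these 13 genes. MT-ATP8, MT-ND3 and MT-ND4L are listed at 0. Cycloheximide acts on cytosolic ribosomes and not on mitochondrial ones, so these values have another basis than those of nuclear genes. Nuclear-encoded oxidative phosphorylation had a median of 1.08 over 84 rows, with ATP5B, the catalytic subunit of ATP synthase, at 12.4, COX6B1 at 11.1 and NDUFS5 at 10.5. Mitochondrial ribosomal proteins had a median of 0.619, which is 11.3 times the all-gene median, against 84.4 times for the cytosolic ones, and MRPL51 (3.74), MRPS34 (3.04) and MRPL39 (1.96) led them. The ADP/ATP carrier SLC25A5 (9.31), the chaperonin HSPD1 (8.66) and CHCHD2 (5.74) led the import, carrier and chaperone list, whose median was 1.02.

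Protein folding and turnover held 3.48% of the effective reads over 160 genes. HSP90AB1 (19.5) and HSP90AA1 (17.4), the cytosolic HSP90 forms, and the constitutive HSPA8 (9.97) were the densest cytosolic chaperones, whereas the small heat-shock protein HSPB1 had 0.112. In the endoplasmic reticulum CALR (6.58), HSP90B1 (5.43) and CANX (2.91) led a list with a median of 0.433. The signal recognition particle subunit SRP9 (3.51), RPN2 (2.54) and DAD1 (2.50) of the glycosyltransferase complex led the translocon list, whose median was 0.507. The polyubiquitin gene UBB had 15.9 from 2000 effective reads; it encodes ubiquitin repeats, so reads can match several places. SUMO2, a ubiquitin-like modifier, had 4.64. Peroxiredoxin PRDX1 had 15.4, thioredoxin TXN 6.33 and superoxide dismutase SOD1 5.87.

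Subunits of complexes of fixed composition differed in density by more than counting error. In the CCT chaperonin, a ring of 8 different subunits, density ran from 1.69 for TCP1 to 5.44 for CCT8, a ratio of 3.21, and CCT5 (5.32) and CCT3 (5.19) lay close to the top. The 6 measured beta subunits of the 20S proteasome had the narrowest range of density of the complexes described, from 1.84 for PSMB5 to 2.86 for PSMB1, a ratio of 1.55. Its 7 alpha subunits ran from 0.112 for PSMA1 to 2.20 for PSMA7, a ratio of 19.6, and the 6 ATPases of the 19S cap from 0.498 for PSMC6 to 3.05 for PSMC4. MCM2 to MCM7, the replicative helicase, ran from 0.550 for MCM5 to 4.54 for MCM7, a ratio of 8.26. The standard deviation of log2 density over subunits was 0.61, 0.25, 1.76, 0.86 and 1.07 in this order, where counting error alone had a root mean square of 0.049, 0.082, 0.16, 0.086 and 0.065. The 77 core ribosomal proteins had a standard deviation of 1.05, from RPL36A at 0.432 to RPL7A at 15.1. RPL36AL, a paralog of RPL36A that stood on no list, had 5.50, so the value of RPL36A alone is uncertain. Density here is per length of the longest transcript, which includes untranslated sequence and exceeds the coding part by a different amount for each gene. On effective reads, which are not divided by length, the standard deviation of log2 values was 0.65, 0.84, 1.60, 0.69 and 0.88 in the same order, so the beta subunits were less even than the CCT subunits and the ATPases on that scale.

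**Figure D4:**
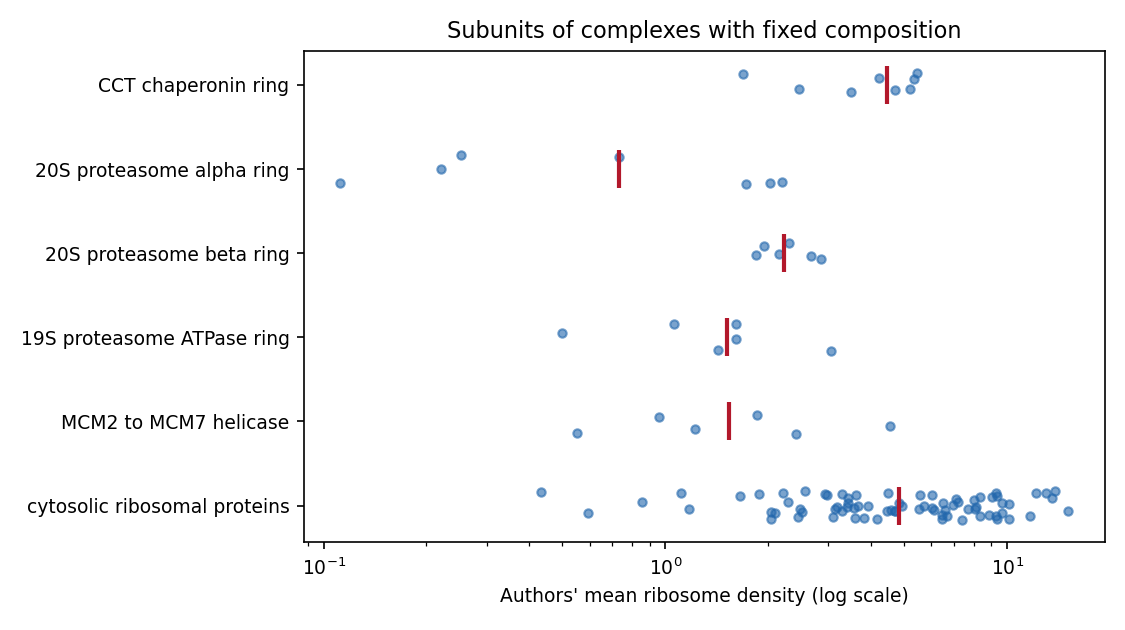
Authors' mean ribosome density (log scale, horizontal axis) of each subunit (blue points) of 5 complexes and of the 77 core cytosolic ribosomal proteins, with the median (red bar). The 20S beta ring spans a ratio of 1.55 and the 20S alpha ring a ratio of 19.6.

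PSMA1 and RPL36A, the lowest of their sets, share their strand and part of their span with another gene row. PSMA6 (0.221), the next lowest alpha subunit, overlaps no other row. Across the table, 37.6% of the 2079 genes that overlap another row on the same strand were listed at 0, against 14.4% of the 3699 that overlap on the other strand only and 22.6% of the 13106 without overlap. Among 1105 nuclear genes of the translation, mitochondria, protein quality, RNA processing, metabolism, nucleus and cell cycle lists, a set chosen after the values were seen, 9.17% of 109, 1.82% of 275 and 1.11% of 721 were at 0 in the same order. The 10 of these at 0 with a same-strand overlap include EEF1G, a subunit of the EEF1 exchange complex, COX8A of cytochrome c oxidase, NDUFA7 and NME2, which growing cells use. The others are COX8C, EIF4EBP3, MRPL12, MRPL30, PSMB10 and TOMM6. Those at 0 that overlap on the other strand only are ATP5I, NDUFA1 and NDUFA4L2 of the oxidative phosphorylation list, TOMM20L and DDX4. EIF4A1, the main helicase of initiation, had 0.0446, with 8 effective reads, and overlaps no other row of the table. The 8 at 0 without any overlap include germ-cell and thymus forms such as PSMA8, PSMB11 and DDX53, and the muscle form COX6A2. Also among these are COX4I2, COX7B2, ISG15 and SLC7A3. No source used here states how reads shared by overlapping genes were counted, and the part of counting in these values was not tested. A 0 in this table is therefore reported as listed at 0 and not as absence of translation.

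Some genes of the cytoskeleton and of cell division were dense as well. The 56 rows of the tubulin and actin list had a median of 0.459, and TMSB10, TUBA8 and TUBB3 are listed at 0. TUBB3 overlaps another gene row on the same strand, and TMSB10 overlaps on the other strand only. ACTG1 (15.5) and ACTB (11.5), the cytoplasmic actins, were the densest with the alpha-tubulins TUBA1A (14.2), TUBA1C (12.7) and TUBA1B (7.42), near-identical genes whose split is uncertain, and the beta-tubulin TUBB4B (8.05). The sliding clamp PCNA had 9.34, the mitotic regulators CKS2 6.01 and CCNB1 3.05, the GTPase RAN 4.91 and the importin KPNA2 4.48. Nuclear transport genes had a median of 0.411, with the exportin CSE1L (3.48) and the RAN-binding RANBP1 (2.41) next after KPNA2. RNA polymerase and elongin subunits had a median of 0.337, led by TCEB2 (6.27), an elongin subunit, and POLR2L (2.87). DNA replication genes had a median of 0.541 and mitosis and cell cycle genes 0.671. All 40 DNA replication and all 47 mitosis and cell cycle genes were above 0, against 77.4% of all genes, and 30 and 37 had at least 100 effective reads, against 16.1% of all genes. Of 18 stress regulators with upstream reading frames, 7 had at least 100 effective reads, against the same 16.1%. The oncogenic transcription factor MYC led these at 1.97, ahead of JUN (0.961) and ATF4 (0.694), and DDIT3, the stress-induced CHOP, had 0.218 from 24 effective reads. The signalling adaptor YWHAE, of the 14-3-3 family, had 8.09 and the GTPase RHOA 2.55. The glutamine transporter SLC1A5 had 2.56, above SLC38A2 (0.833) and SLC3A2 (0.709), around a list median of 0.115.

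Several of the densest rows stood on no list. Among them PGP, a phosphoglycolate phosphatase, had a density of 70.9, the growth factor gene BMP8B 39.5, FLYWCH1, a zinc-finger gene, 36.4 and the sulfatase ARSI 35.6. PGP, BMP8B and FLYWCH1 held 0.918%, 0.904% and 0.889% of the effective reads, each more than EEF1A1. What share of the reads on the rows named in this paragraph is mRNA footprints was not tested. FCGR2A, an Fc receptor of myeloid cells, had 24.4 while PTPRC, CD14 and ITGAM, defining genes of blood cells, are listed at 0. RefSeq places a tRNA gene inside FCGR2A, 1 of 28 genes of the 18562 matched that contain one and the only such gene among the 60 highest densities; its part in the value was not tested. ADPRHL1 had 21.1, the pseudogene row UBBP4 of the ubiquitin family 14.6 and CKB, the brain-type creatine kinase, 11.97, with the transcription factor gene FOXF2 at 11.3. On the lists, RAB12, a small GTPase of membrane traffic, had 46.8 and took 48.3% of its list's reads, while the next, ARF1, had 3.00. OAZ2, a frameshifted inhibitor of polyamine synthesis, had 12.6 and took 89.5% of the polyamine list's reads, while its relative OAZ1 had 0.359 and the target enzyme ODC1 1.57.

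Marker genes bore on the label of the cells. UCHL1, a deubiquitinase abundant in neurons, had 6.71, STMN1, a tubulin-binding protein, 2.09, and the intermediate filament genes VIM, KRT8 and KRT18 had 2.35, 0.755 and 0.440. Of the 29 HEK293 lineage markers, 23 were above 0, which is near the background of 77.4%, and 10 lay among the highest 10% of densities. NEFM, NEFH, TUBB3, TH, DBH and CRABP1 are listed at 0, and the kidney regulator PAX2 had 0.00937 from 4 effective reads. TUBB3 overlaps another gene row on the same strand, so its 0 is uncertain. Markers of mature kidney segments were low, with 12 of 20 above 0, a median of 0.0056 and PODXL highest at 0.137. Of 20 haematopoietic markers 11 were above 0, with LYZ highest at 0.161. Of 16 liver markers 5 were above 0, with APOH highest at 0.109 and ALB at 0. Of 20 fibroblast and muscle markers 17 were above 0, led by ACTA1 (1.39), whose sequence is close to that of the cytoplasmic actins, and COL1A1 had 0.0595. In a bulk sample fewer cells of a type and less RNA per cell cannot be told apart.

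Odorant receptors were at 0 in 331 of 352 rows, against 22.6% of all genes, and OR7D2, at 0.265, took 45.3% of the class's reads. Families with at least 15 rows that share the letters of their symbol were set against the same 22.6%. All 37 DEFB defensins, 18 LCE skin genes and 17 PRAMEF genes were listed at 0, as were 79 of 83 hair keratin-associated KRTAP genes. ZNF genes were mostly detected, with 477 of 501 above 0, against 77.4% of all genes, and their median of 0.0933 was 1.70 times the all-gene median. At 100 effective reads or more stood 50 of them, against 16.1% of all genes. ZNF860 (2.51) and ZNF711 (2.02) were the exceptions at the top. HOX genes, the position regulators of the embryo, had 34 of 39 above 0, against 77.4% of all genes. Their median was 0.0591, near the all-gene median, with HOXA2 (0.840), HOXD13 (0.672) and HOXC9 (0.430) highest. Interferon and antiviral genes had a median of 0.0532, with IRF9 (0.559), IFITM3 (0.416) and OASL (0.407) on top. Of these 27 genes, 1 had at least 100 effective reads, against 16.1% of all genes.

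**Figure D5:**
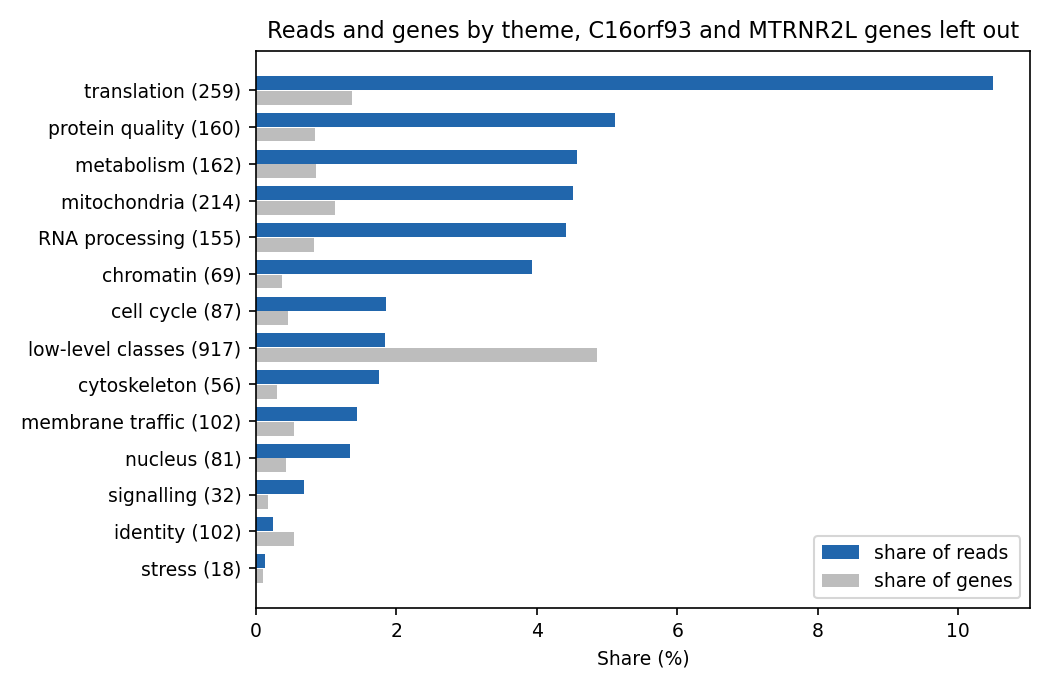
Share of effective reads (blue bars, %) and share of genes (grey bars, %) for each theme, each gene counted once in the first list that holds it, with C16orf93 and the MTRNR2L genes left out of the reads. Translation genes hold 10.5% of the reads with 1.37% of the genes, whereas the low-level classes hold 1.83% with 4.86%.

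By theme, with the 13 genes left out of the total, translation genes held 10.5% of the effective reads, protein quality 5.12%, metabolism 4.57%, mitochondria 4.52%, RNA processing 4.41% and chromatin 3.93%. These are 1.37%, 0.847%, 0.858%, 1.13%, 0.821% and 0.365% of the genes. Membrane traffic, with 0.540% of the genes, held 1.45%, of which RAB12 was the main contributor. The 16457 genes on no list held 57.6%, at a median density of 0.0474. By chromosome, the 13 mitochondrial genes held 1.34% and chromosome 16 had 6.41% of the reads with 4.39% of the genes, of which PGP was 21.0%. FLYWCH1, also on chromosome 16, held 1.31% of all these reads, near the 1.35% of PGP. Chromosome 11, rich in odorant receptor genes, had 3.64% with 6.66% of the genes, and 65.1% of its genes were above 0.

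Shorter transcripts were detected less often but were denser when detected. In the decile of genes with the shortest listed transcripts, 117 to 1124 bases, 29.1% were above 0, against 94.7% in the decile with the longest, 6754 to 109224 bases. Among genes above 0 the median density was 0.230 in the shortest decile and 0.0630 in the longest. Of the 1889 genes among the highest 10% of densities, 344 lay in the second shortest length decile and 75 in the longest. A given number of reads makes a higher density on a shorter transcript, and the smallest value above 0 that a gene can take is higher for shorter ones, so this trend holds the effect of the unit itself.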

How the data were processed

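Ribosome footprints of HEK293 cells were aligned by the authors with TopHat to hg19, per the submitters' processing notes; no source used here names the counting tool or the annotation. The deposited table holds a signal, the authors' mean ribosome density per gene and group, with an unstated scale, and no value per library. The deposited columns of knockout density hold error cells and count as an other kind of value; they served only to check the log ratios. The deposited log ratios are entered as a score, and 18 rows where that of the cycloheximide libraries differed from log2 of the means by more than 1e-06 were left out in 1 alternative. The listed transcript length in the deposited table is that of the longest transcript.

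Low products of density and length fall on whole multiples of 5 steps, searched up to the number of libraries with a tolerance of 0.005; their mean, 9.75, was taken as 1 effective read. Of 10 repeated low products 0 were unexplained, and 213 genes had a product under the smallest step. The step search and intervals were tested on simulated data. These held whole, independently drawn reads only, so they could not test the 213 genes under the smallest step. Nor could they test repeated molecules or spread between libraries. Of 335 rows left out, 290 lie on alternate or patch sequences and have no reads. Gene symbols that a spreadsheet had turned into numbers (26 rows) were restored through RefSeq (GRCh38.p14), which matched 18562 rows; its coordinates are used only for start windows.

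The 48 gene lists, the members and the rule for named genes (25 highest densities, 25 highest read shares, 3 highest of each list, 10 highest on no list, extremes of complexes, CNBP) were chosen with earlier results of these data known; some further members and silent families were named after their values were seen. Some genes that the rule names are not reported here. No test was planned for 1 mean. Python 3.11.15, pandas 2.3.3 and scipy 1.17.1 were used.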

Additional observations from a re-analysis of the deposited data

How the results depend on the processing

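No replicate could be left out and the spread between libraries is unknown, since the table gives 1 mean. No paired analysis was possible because the columns carry no replicate. Density per coding length was not run, since no protein table was used here. The number of genes detected was 14614, 11399 with at least 10 effective reads and 3048 with at least 100. Genes holding 50% of the reads numbered 146, 780 without C16orf93 and the MTRNR2L genes and 15 when density was not multiplied by length. Effective reads in all were 2157615, or about 3850290 with the smallest step and about 1394060 with the largest, which would narrow or widen every interval. The choice of step would also change every count of genes with at least 10 or at least 100 effective reads. The read share of ribosomal proteins was 3.64%, and 5.35% without C16orf93 and the MTRNR2L genes, 3.67% without mitochondrially encoded genes and 4.57% as a share of summed density; their median density was 4.63, and 4.69 without the rows whose log ratio disagreed. The MTRNR2L share was 21.3%, with 21.5% without mitochondrially encoded genes, 21.3% without the disagreeing rows, 36.0% of summed density and 21.4% over genes with at least 10 effective reads. C16orf93 had 10.7%, with 10.8% without mitochondrially encoded genes, 10.8% of summed density and 10.7% over genes with at least 10 effective reads. Histones had 2.08%, with 3.05% without C16orf93 and the MTRNR2L genes and 3.79% of summed density, and a median of 1.12, or 5.59 over those above 0. Of the other 44 lists, the share of summed density was higher for 9 and lower for 35, and beyond 1.5 times for 12. A setting that leaves genes out of the total raises every remaining share by construction. Leaving out C16orf93 and the MTRNR2L genes from the detected genes, which gave 14601, was chosen after seeing the data. These 4 lists were picked for this paragraph with their values known.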
